A study of Mus musculus with 28 samples.

Results

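The genes described here are the 19 Wnt ligands, the 10 Frizzled receptors, 8 secreted inhibitors (4 of the Sfrp family and 4 of the Dkk family), the nuclear factor Lef1 and the feedback gene Axin2. These 39 genes were picked by name from the 19421 genes of the table by a rule that uses no measured value, with earlier results of these data known, and 38 of them passed the filter on low values. Wnt7a was measured but not tested, since it reached 10 normalized counts in fewer than 2 of the 28 libraries (0 to 11.2). Each gene was compared between Dox and No Dox within each of 7 inducible mouse embryonic stem cell lines. The question was how Atoh1, Gfi1 and Pou4f3, 3 transcription factors of inner ear hair cells, act on these genes alone and together.

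All lines came from the A2loxCre parent, and each carried a doxycycline (Dox)-inducible cassette at 1 engineered locus together with the fluorescent protein mVenus. iAtoh1, iGfi1 and iPou4f3 carried 1 factor each, iG+A carried Gfi1 and Atoh1, iG+P carried Gfi1 and Pou4f3, iP+A carried Pou4f3 and Atoh1, and iGPA carried Gfi1, Pou4f3 and Atoh1. Cells were differentiated as embryoid bodies (EBs) without LIF, and the Dox groups received 2 µg/ml Dox from day 4 for 48 h before mVenus+ cells were sorted at day 6. The No Dox groups were whole, unsorted EBs of the same line at day 6, so within a line Dox and sorting cannot be told apart. Every group held 2 libraries, described by the submitters as different clones of 1 line, and p-values measure the spread between these libraries only.

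Wnt ligands are secreted, lipid-modified glycoproteins that bind Frizzled receptors, and in the canonical branch the bound receptor, with Lrp5 or Lrp6, spares β-catenin from destruction so that it can act with Lef1 and the Tcf factors on target genes such as Axin2. Sfrp proteins bind the ligands themselves, and Dkk1, Dkk2 and Dkk4 bind the Lrp coreceptors. In the early embryo and in EBs, Wnt signalling is known for its part in forming the primitive streak and mesoderm, and in the inner ear it acts on the growth of prosensory cells and on the orientation of hair cells.

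Values are normalized counts, and an effect of Dox is a difference of log2(normalized count + 1), which understates the change of genes with few counts. A gene is said to have risen or fallen where the limma adjusted p was under 0.05 and the difference was at least 1.5 on the log2 scale. In bulk samples, fewer cells that use a gene and less of its RNA per cell cannot be told apart. Libraries summed to 36.8 to 40.4 M normalized counts, and the depth estimated from the steps of the low values was 30.4 to 48.0 M reads. With Dox, Atoh1, Gfi1 and Pou4f3 were each high in every line that carries the cassette (12816 to 21242, 8119 to 12487 and 4694 to 19883) and 14.3 to 32.5, 49.7 to 113 and 27.7 to 101 in the lines that do not, so no library went against its label. Pou4f3 was lowest in iPou4f3 cells (4694 and 5381) and stood between 10868 and 19883 in the other 3 lines with its cassette. The untreated EBs held markers of several cell types, with sums of 67326 to 481793 for 7 blood genes, 50333 to 163912 for 8 fibroblast and mesenchyme genes and 1553 to 20659.9 for 8 genes of pluripotent cells.

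Wnt genes moved in both directions, and the counts were highest in the lines that combine Gfi1 with Atoh1. In iG+A cells 11 of the 38 tested members rose and 3 fell, where 7.35% and 4.95% of all 16837 genes did (12.3% in either direction). Without the second iG+A Dox library 6 rose and 2 fell there. In iGPA cells 8 rose and 7 fell, beside 8.65% and 5.31% of all genes (14%). The iGPA rises were 4 with quantile normalization and 4 against all 14 No Dox libraries, and 5 with a pseudocount of 5, with 7 falls each. In iAtoh1 cells 1 rose and 5 fell, beside 2.89% and 2.52% (5.4%), and in iP+A cells 2 rose and 4 fell, beside 4.7% and 2.58% (7.29%). Only falls were called in iG+P cells, 6 members beside 5.36% of all genes (10.5% in either direction), and in iGfi1 cells, 4 beside 2.67% (4.82%). As shares of the 38, the calls made up 39.5% in iGPA, 36.8% in iG+A and 10.5% in iGfi1 cells, and 15.8% each in the iG+P, iP+A and iAtoh1 lines. In iPou4f3 cells limma called 0 members (6 at an unadjusted p under 0.05), beside 2.08% of all genes called and 18.2% at that unadjusted p. Over the 7 lines 23 of the 38 tested members were called in at least 1 line, 10 of them only as rises, 10 only as falls and 3 as both (Wnt4 and Sfrp5 with 1 rise and 1 fall each, Wnt6 with 2 rises and 1 fall).

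**Figure D1:**
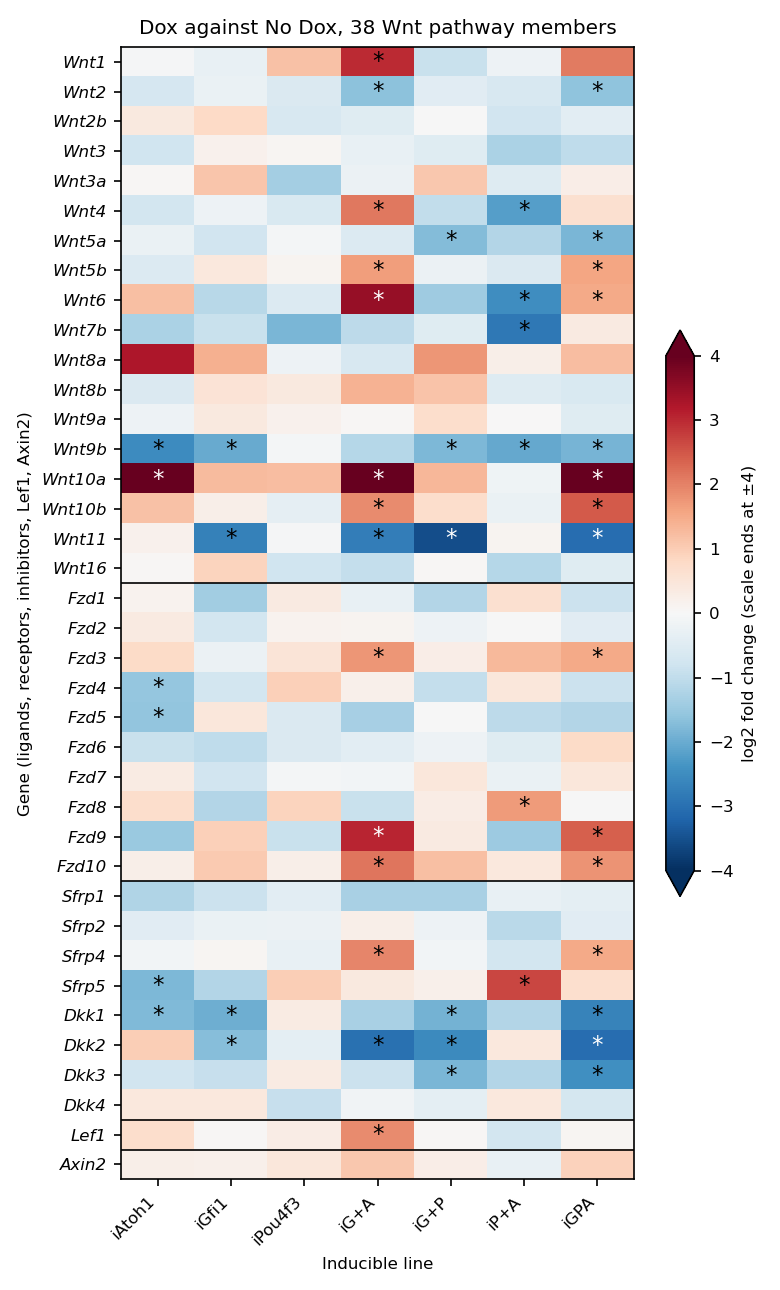
Heat map of the log2 fold change of Dox against No Dox for the 38 tested members (rows, ordered as ligands, receptors, inhibitors, Lef1 and Axin2) in the 7 lines (columns), with red for higher and blue for lower and the colour scale ending at ±4. An asterisk marks an adjusted p under 0.05 with a difference of at least 1.5, and the iG+A and iGPA columns hold 14 and 15 of the 51 asterisks.

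Without Dox, the ligand genes covered a wide range of levels. Per kilobase of exon, the median over the 14 No Dox libraries was highest for Wnt5a, a ligand of the non-canonical branch, at 357 normalized counts, followed by Wnt2 at 289.8, Wnt3 at 253 and Wnt11 at 242. Their ranges over the libraries overlapped (276 to 543 for Wnt5a and 124 to 509 for Wnt11). At the low end stood Wnt1 and Wnt10a, at medians of 0.422 and 0.401 per kilobase. Among the receptors Fzd2 (1063 per kilobase) and Fzd7 (723) had the highest medians and Fzd9 (14.1) the lowest, and among the inhibitors Sfrp1 (279), Dkk3 (256) and Dkk1 (247) stood close together above the others.

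Wnt9b (Entrez 22412, chromosome 11, 103588678 to 103611135, minus strand, build NCBIM37 throughout), a canonical ligand of the kidney ducts and face, fell in 5 of 7 lines. Without Dox it ranged from 17.4 to 274 normalized counts over the 14 libraries and with Dox from 12.8 to 92.0, with medians of 119 and 31.1. The largest difference was in iAtoh1 cells, where it had 82.1 and 153 without and 20.1 and 17.97 with Dox, −2.5003 (SE 0.60, limma adjusted p = 0.00564). The other falls were −2.05 (limma adjusted p = 0.0178) in iP+A, −2.01 (limma adjusted p = 0.0186) in iGfi1, −1.87 (limma adjusted p = 0.016) in iGPA and −1.80 (limma adjusted p = 0.0263) in iG+P cells, and iPou4f3 cells had −0.08 (limma adjusted p = 0.966). In iG+A cells, with 17.4 and 66.1 without and 12.8 and 17.1 with Dox, it was −1.16 (limma adjusted p = 0.133), and without the first No Dox library it was called (−2.09, adjusted p = 0.0212). Against all 14 No Dox libraries the falls in iGfi1 (−1.67 (adjusted p = 0.0561)), iG+P (−0.67 (adjusted p = 0.426)) and iP+A cells (−1.05 (adjusted p = 0.213)) lost their calls, and iG+A cells were called (−2.68, adjusted p = 0.00148). Each of the 5 falls lost its call without at least 1 library of its line. Without the second iAtoh1 No Dox library it was −2.05 (adjusted p = 0.0651). In iP+A cells it was −2.07 (adjusted p = 0.0812), −2.02 (adjusted p = 0.0792) and −1.61 (adjusted p = 0.135) without the first Dox, second Dox and first No Dox library. In iGfi1 cells it was −1.83 (adjusted p = 0.125) without the first Dox and −1.76 (adjusted p = 0.128) without the second No Dox library, and in iGPA cells −1.41 (adjusted p = 0.140) without the second Dox and −0.98 (adjusted p = 0.258) without the first No Dox library. In iG+P cells any of the 4 libraries was enough (−1.92 to −1.68, adjusted p 0.0719 to 0.122). Over the mean of the 7 lines, which uses all 28 libraries, the fall was −1.64 (SE 0.23, limma adjusted p = 5.62e-06) and kept its call without any single library.

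Wnt11 (Entrez 22411, chromosome 7, 105983622 to 106003705, plus strand), a non-canonical ligand known from gastrulation movements and heart formation, fell in each of the 4 lines with Gfi1 and was not called in the 3 lines without it. Its libraries had 1101 and 1127 normalized counts without and 133 and 221 with Dox in iGfi1, and 656 and 865 and 167 and 71.5 in iG+A cells. In iG+P cells it had 598 and 696 without and 43.1 and 68.0 with Dox, and in iGPA cells 721 and 894 and 74.96 and 122. Dox and No Dox were far apart in these 4 lines, and the differences were −2.69 (SE 0.41, limma adjusted p = 1.33e-04), −2.77 (SE 0.41, limma adjusted p = 3.05e-05), −3.55 (SE 0.41, limma adjusted p = 2.15e-06) and −3.05 (SE 0.41, limma adjusted p = 7.24e-06) in that order. In iAtoh1, iPou4f3 and iP+A cells the Dox libraries stood at 605 and 948, 919 and 874, and 1651 and 1357, which overlapped the untreated ones (451 and 986, 1016 and 841, and 1848 and 1053), with differences of 0.18, −0.05 and 0.10. Per kilobase, its share of the 19 ligands was 15.9% without and 2.60% with Dox in iGPA cells. The summed level of 7 markers of paraxial and lateral mesoderm (Meox1, Tcf15, Foxc2, Hand1, Hand2, Foxf1 and Tbx20) moved with it: 24721 to 60830.1 without and 4589 to 12179 with Dox over the 4 lines with Gfi1, and 27527 to 56273 and 33793 to 64851 over the other 3. None of the 7 markers was at 0 in both libraries of a group, 3, 2, 4 and 4 of them fell in iGfi1, iG+A, iG+P and iGPA cells, and their part in the result was not tested.

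The window upstream of the first Wnt11 start (chr7:98834862-98835111, plus strand, GRCm38.p6) is shown because Wnt11 fell in all 4 lines with Gfi1. The capitals mark the reverse complement of CTTTGAT, which starts 51 bases before the RefSeq start. The window before the second Wnt11 start (chr7:98838595-98838844, plus strand) holds AATCNNNG, at position −232 from that start (2 in its full 300 bases).
Wnt11: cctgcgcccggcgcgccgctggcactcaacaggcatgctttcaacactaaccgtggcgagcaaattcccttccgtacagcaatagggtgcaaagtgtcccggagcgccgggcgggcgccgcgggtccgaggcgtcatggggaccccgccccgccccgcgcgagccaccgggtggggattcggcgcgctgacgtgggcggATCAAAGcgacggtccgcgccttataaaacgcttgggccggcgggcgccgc
Of the members, 27 had an entry in the RefSeq promoter table, with 33 windows of 300 bases in all. 8 motifs were searched on both strands: the E-boxes CAGCTG and CATCTG for Atoh1-like factors, AATCACTG and its looser form AATCNNNG for Gfi1, ATGCAAAT and TAATTAAT for POU factors, and CTTTGAT and CTTTGAA for Lef1 and Tcf factors. AATCACTG is contained in AATCNNNG. CAGCTG lay in 3 of the 33 member windows (16.3% of all 32851 windows), CATCTG in 3 (17.2%), AATCNNNG in 10 (32.1%) and AATCACTG in 1 (1.07%). ATGCAAAT lay in 1 (1.74%), TAATTAAT in 0 (0.852%), CTTTGAT in 2 (3.73%) and CTTTGAA in 1 (5.14%). A match is a run of letters only.

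Wnt10a (Entrez 22409, chromosome 1, 74838090 to 74850753, plus strand), a canonical ligand known from teeth, hair and skin, rose from near 0 in 3 of the 4 lines that carry Atoh1 and was not called in the fourth. Its libraries without Dox lay between 0 and 6.11 normalized counts in all 7 lines. With Dox it had 615 and 1018 in iG+A and 666 and 569 in iGPA cells, against 0 and 2.24 and 1.75 and 0 without. iAtoh1 cells reached 108 and 73.8 with Dox, below the iG+A and iGPA libraries and above every library without Dox. In iP+A cells, which also carry Atoh1, Dox and No Dox overlapped, at 4.53 and 2.88 with Dox and 6.11 and 2.76 without. The log2 differences were 8.78 (SE 0.72, limma adjusted p = 3.81e-08) in iG+A, 8.54 (SE 0.72, limma adjusted p = 2.99e-08) in iGPA and 5.31 (SE 0.72, limma adjusted p = 4.01e-05) in iAtoh1 cells, and −0.16 (SE 0.72, limma adjusted p = 0.906) in iP+A cells. Because the untreated levels are near 0, the size depends on the pseudocount: in iG+A it was 9.40 with a pseudocount of 0.5 and 7.05 with 5. Per kilobase of exon, Wnt10a made up 19.8% of the sum of all 19 ligands in iG+A and 24.0% in iGPA cells with Dox, where it exceeded Wnt5a (13.3% and 8.599%), and 2.74% in iAtoh1 cells. Wnt5b made up 21.1% in iG+A cells with Dox, above Wnt10a, and 22.0% in iGPA cells with Dox, below it.

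Wnt6 (Entrez 22420, chromosome 1, 74818466 to 74831893, plus strand) is the neighbour of Wnt10a, on the same strand and 6196 bases away with no protein-coding gene between them. It had 24.4 and 34.7 normalized counts without Dox and 295 and 387 with Dox in iG+A cells, and 54.2 and 33.4 against 177 and 87.8 in iGPA cells. In iP+A cells it went the other way, from 73.3 and 52.4 to 9.05 and 11.5, and in none of these lines did the Dox and No Dox libraries overlap. The differences were 3.49 (SE 0.53, limma adjusted p = 4.51e-05) in iG+A, 1.53 (SE 0.53, limma adjusted p = 0.0247) in iGPA and −2.49 (SE 0.53, limma adjusted p = 0.00203) in iP+A cells. The call in iGPA was lost without the first Dox library, at 1.03 (adjusted p = 0.227), and without the second No Dox library, at 1.19 (adjusted p = 0.173). In iAtoh1 cells Wnt6 had 112 and 132 with Dox and 42.0 and 63.6 without, a difference of 1.22 (limma adjusted p = 0.106) that was not called, and against all 14 No Dox libraries it was called as a rise (1.501, adjusted p = 0.00873). In iG+P cells Wnt6 had 69.5 and 45.1 without and 45.1 and 8.67 with Dox, −1.43 (limma adjusted p = 0.0443), under the fold required, and −2.56 (adjusted p = 6.31e-04) without the first Dox library. With quantile normalization Wnt6 was called as a fall in iG+P cells (−1.506, limma adjusted p = 0.0304). So Wnt6 and Wnt10a both rose in iG+A and iGPA cells, while in iP+A cells Wnt6 fell and Wnt10a had −0.16.

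The sequence before the Wnt6 start is shown because Wnt6 turns on the combination of factors in both directions. It is the 250 bases upstream of the RefSeq start on GRCm38.p6 (chr1:74771642-74771891, plus strand), in lower case since none of the motifs searched lies in these bases. The full 300-base window, which runs past the start, holds 1 AATCNNNG.
Wnt6: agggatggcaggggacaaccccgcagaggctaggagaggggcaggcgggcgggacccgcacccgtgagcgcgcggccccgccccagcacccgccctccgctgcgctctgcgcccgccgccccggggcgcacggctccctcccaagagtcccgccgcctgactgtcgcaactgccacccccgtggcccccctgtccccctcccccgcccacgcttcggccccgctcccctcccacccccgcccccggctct

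Wnt4 also rose in iG+A cells, and Wnt5b in both lines that combine Gfi1 with Atoh1. In these cells 6 markers of neural progenitors (Sox1, Sox3, Pax6, Nes, Hes5 and Zic1) summed to 764 and 1091 normalized counts without and 3501 and 4067 with Dox in iG+A, and 899.8 and 784 and 2339 and 2628 in iGPA, and 3 and 2 of the 6 rose. In the Dox libraries of the other 5 lines they summed to 537 to 1811, and no marker was at 0 in both libraries of a group. Their part in the rises of ligands and receptors in iG+A and iGPA cells was not tested. Wnt5b (Entrez 22419, chromosome 6, 119382549 to 119494336, minus strand), a non-canonical ligand, went from 234 and 355 to 797 and 1054 normalized counts in iG+A cells and from 208 and 191 to 625 and 580.1 in iGPA cells. Neither pair of groups overlapped, and the differences were 1.67 (SE 0.38, limma adjusted p = 0.00179) and 1.59 (SE 0.38, limma adjusted p = 0.00213). The iGPA call was lost under 2 alternatives, all 14 No Dox libraries as 1 control among them. The iGPA difference went down to 1.08 over the alternatives. In iG+A the difference was 1.47 (adjusted p = 0.022) without the second Dox library and 1.37 (adjusted p = 0.0321) without the first No Dox library, both under the fold required. Wnt4 (Entrez 22417, chromosome 4, 136833404 to 136855641, plus strand), known from kidney and gonad formation, had 48.7 and 66.1 without and 209.6 and 298 with Dox in iG+A cells, a rise of 2.12 (SE 0.31, limma adjusted p = 2.82e-05) that was 1.38 (adjusted p = 0.0178) against all 14 No Dox libraries, and 85.0 and 86.8 against 74.3 and 40.3 in iGPA cells, where the difference of 0.64 (limma adjusted p = 0.0981) was not called. With Dox it fell in iP+A cells from 299 and 222 to 60.7 and 49.0, a difference of −2.22 (SE 0.31, limma adjusted p = 3.30e-05). The untreated iP+A libraries were the highest of all untreated libraries for Wnt4 (40.3 to 123 in the other lines), and against all 14 No Dox libraries the difference was −0.80 (adjusted p = 0.188).

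Wnt10b and Wnt1, a second pair of neighbours (chromosome 15, 11706 bases apart on opposite strands), were both low. Wnt10b (Entrez 22410, chromosome 15, 98602184 to 98608581, minus strand) had 0.911 and 2.52 normalized counts without and 14.9 and 11.6 with Dox in iGPA cells, a rise of 2.45 (SE 0.72, limma adjusted p = 0.00954). In iG+A cells it had 1.98 and 8.18 and 9.98 and 33.1, a rise of 1.89 (SE 0.72, limma adjusted p = 0.043). With a pseudocount of 5 the differences were 1.45 and 1.32, both under the fold required. The iGPA call was lost without the first Dox library, at 2.28 (adjusted p = 0.0589), or the first No Dox library, at 2.01 (adjusted p = 0.085). In iG+A the call was lost without the second Dox library, at 1.07 (adjusted p = 0.344), without the first No Dox library, at 1.07 (adjusted p = 0.354), and without either iP+A Dox library, which left the value and gave an adjusted p of 0.0506 and 0.0507. Wnt1 (Entrez 22408, chromosome 15, 98620288 to 98624268, plus strand), a canonical ligand of the midbrain and the dorsal neural tube, had 1.16 and 3.36 without and 19.1 and 28.1 with Dox in iG+A cells, a rise of 2.98 (SE 1.17, limma adjusted p = 0.0498). This call had the least margin: it was lost without any of the 4 iG+A libraries (2.47 to 3.49, adjusted p 0.0746 to 0.213) and without any of 18 libraries of other lines (adjusted p 0.0517 to 0.0581).

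**Figure D2:**
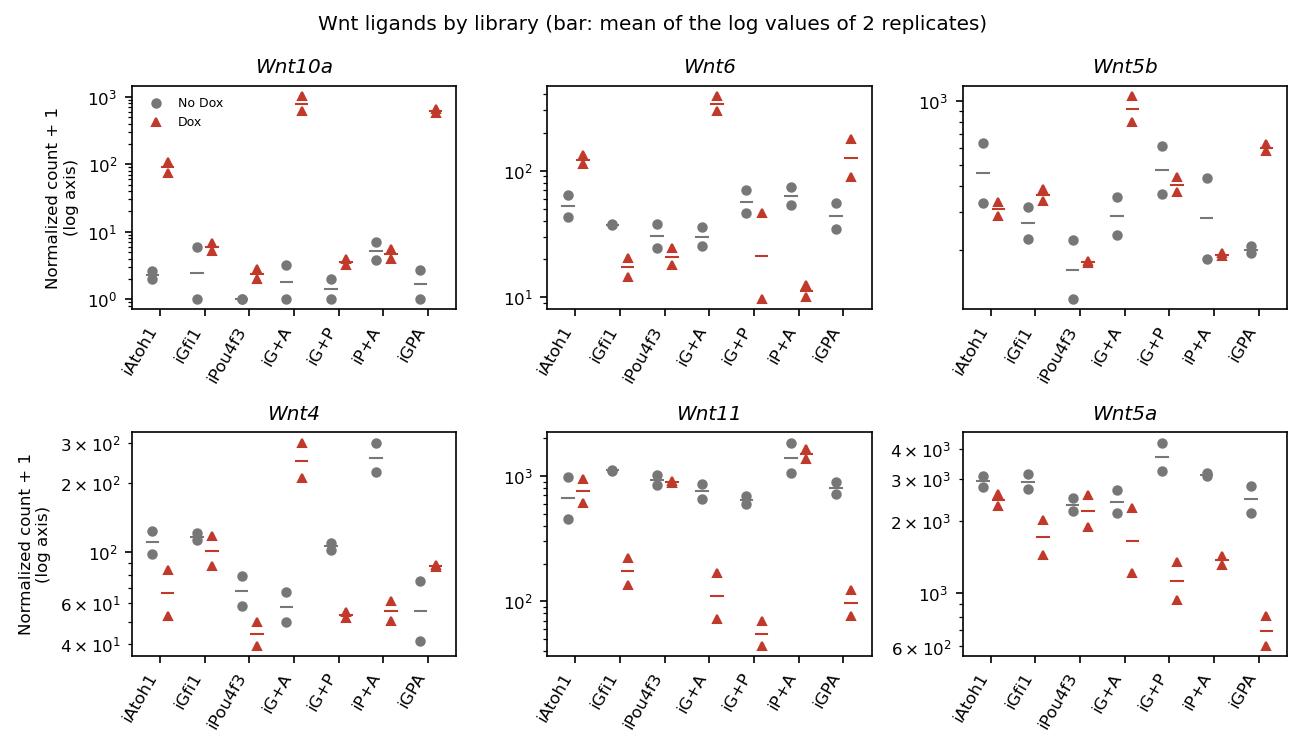
Normalized counts + 1 (log axis) of 6 Wnt ligands in every library of the 7 lines, with grey circles for No Dox, red triangles for Dox and a bar at the mean of the log values of the 2 replicates. Wnt10a lies at 615 and 1018 normalized counts in iG+A Dox and 666 and 569 in iGPA Dox, and Wnt11 lies lower with Dox than without in the 4 lines with Gfi1.

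Wnt5a (Entrez 22418, chromosome 14, 29317936 to 29340633, plus strand), the ligand with the highest median per kilobase without Dox (with Dox Wnt2 was higher, at 203 against 184), fell in both lines that combine Gfi1 with Pou4f3. It had 4244 and 3239 normalized counts without and 1346 and 933 with Dox in iG+P, and 2808 and 2163 and 800.2 and 604 in iGPA cells. The groups did not overlap, and the falls were −1.73 (SE 0.25, limma adjusted p = 3.39e-05) and −1.82 (SE 0.25, limma adjusted p = 1.15e-05); without the second iG+P Dox library the first was −1.46 (adjusted p = 0.00153), under the fold required. In iP+A cells Wnt5a went from 3177 and 3070.5 to 1314 and 1434, a difference of −1.19 (limma adjusted p = 0.00202) that stayed under the fold required. The 8 fibroblast and mesenchyme markers summed to 60708 and 69332 without and 9851 and 12991 with Dox in iG+P, and to 71460.5 and 117256 and 8835 and 11416 in iGPA cells; 4 and 5 of the 8 fell, 1 rose in iGPA cells and none was at 0. The sum was lower with Dox in other lines too, with 37051 and 44069.9 against 121873 and 97827 in iGfi1 and 49233 and 41164 against 109603 and 77305 in iP+A cells, and the markers' part in the Wnt5a result was not tested.

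Wnt2 (Entrez 22413, chromosome 6, 17938940 to 17980585, minus strand), a canonical ligand of lung and vascular tissue, fell in iG+A and iGPA cells by −1.65 (limma adjusted p = 0.0151) and −1.60 (limma adjusted p = 0.0156). Its libraries had 1337 and 962 without and 719 and 182 with Dox in iG+A, and 478 and 1056 and 196 and 279.7 in iGPA cells. The fibroblast and mesenchyme sum was 156858 and 109522 without and 43124 and 17326 with Dox in iG+A cells, where the second Dox library was the lowest for Wnt2 too; 3 of the 8 markers fell, and their part in the Wnt2 result was not tested. The iG+A value rests on the second Dox library, without which it was −0.66 (adjusted p = 0.320), and without the first No Dox library it was −1.41 (adjusted p = 0.103). In iGPA cells the value was −1.34 (adjusted p = 0.111) without the first Dox and −1.03 (adjusted p = 0.198) without the second No Dox library. Wnt7b (Entrez 22422, chromosome 15, 85365869 to 85412251, minus strand), a ligand of lung and central nervous system, fell in iP+A cells from 90.1 and 439 to 19.0 and 36.3, −2.87 (SE 0.55, limma adjusted p = 8.39e-04). Its 2 untreated iP+A libraries differed more from each other than those of any other line. They also stood apart in markers, with 3836 and 20659.9 for the sum of 8 genes of pluripotent cells and 618 and 1966 for 8 genes of the primitive streak and nascent mesoderm (T, Mixl1, Eomes, Mesp1, Gsc, Evx1, Tbx6 and Msgn1), whose part in the result was not tested. For Wnt7b, against all 14 No Dox libraries the difference was −1.14 (adjusted p = 0.197). In iPou4f3 cells Wnt7b went from 44.2 and 56.5 to 14.6 and 12.1, −1.83 (SE 0.55, limma adjusted p = 0.0641), and it was the 1 member called there when the replicate was used as a block (limma adjusted p = 0.0255).

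The other 7 tested ligands, Wnt2b, Wnt3, Wnt3a, Wnt8a, Wnt8b, Wnt9a and Wnt16, were not called in any line. Wnt8a, a ligand of the primitive streak, had the widest difference among them: 40.1 and 11.4 normalized counts without and 257 and 175 with Dox in iAtoh1 cells, 3.24 (SE 1.21, limma adjusted p = 0.0616). The groups did not overlap, the untreated libraries were far apart, and the missing call depended on the setting. It was made when the replicate was used as a block (the same difference, limma adjusted p = 0.00517), with a pseudocount of 5 (3.00, adjusted p = 0.0111), with quantile normalization (3.33, adjusted p = 0.0464), against all 14 No Dox libraries (4.45, adjusted p = 4.98e-04) and without either iG+A Dox or either iP+A No Dox library (adjusted p 0.0215 to 0.044). Wnt3, which is needed for the primitive streak to form, had an adjusted p under 0.05 in iP+A cells, at −1.27 (limma adjusted p = 0.045), as 1262 and 1181 became 519 and 493. In iGPA cells Wnt3 was called without the first Dox library (−1.68, adjusted p = 0.0124, against −1.01 (limma adjusted p = 0.0718)). Wnt3a, a ligand of the tail bud, stayed between 0 and 20.6 in all 28 libraries, and Wnt8b between 1.13 and 18.3. Against all 14 No Dox libraries Wnt8b was called in iG+A cells (1.51, adjusted p = 0.00365). Wnt2b had 0.80 (limma adjusted p = 0.00482) in iGfi1 and −0.77 (limma adjusted p = 0.00645) in iP+A cells, opposite in sign and both under the fold required.

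Among the receptors, 3 rose in iG+A and iGPA cells, the lines in which the neural progenitor sums given beside Wnt5b were highest, and were not called in the other 5. Fzd9 (Entrez 14371, chromosome 5, 135724808 to 135727100, minus strand), a receptor of brain and bone, had 24.4 and 29.2 normalized counts without and 169.9 and 303 with Dox in iG+A cells, and 43.7 and 22.6 and 149.9 and 187 in iGPA cells. The Dox libraries of both lines stood above all other libraries of the series for this gene, and the rises were 3.04 (SE 0.38, limma adjusted p = 5.29e-06) and 2.38 (SE 0.38, limma adjusted p = 5.43e-05). In iAtoh1 and iP+A cells Fzd9 was lower with Dox (15.5 and 22.7 and 18.1 and 15.3) than without (42.0 and 69.4 and 35.7 and 63.2), at −1.47 (limma adjusted p = 0.00899) and −1.46 (limma adjusted p = 0.00858), just under the fold required.

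The window before the Fzd9 start (chr5:135251048-135251297, minus strand, GRCm38.p6) is shown because Fzd9 had the largest rise of any receptor; it holds no motif of those searched.
Fzd9: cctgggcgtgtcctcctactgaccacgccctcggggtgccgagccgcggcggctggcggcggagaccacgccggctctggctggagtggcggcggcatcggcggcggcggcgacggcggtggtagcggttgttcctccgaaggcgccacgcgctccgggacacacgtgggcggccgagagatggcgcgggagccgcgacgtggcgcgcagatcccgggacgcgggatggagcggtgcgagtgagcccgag

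Fzd10 (Entrez 93897, chromosome 5, 129106719 to 129109968, plus strand), a receptor of the neural tube and limb, had 1173 and 3253 normalized counts with and 317 and 625 without Dox in iG+A, and 1525 and 1219 and 509 and 297 in iGPA cells. The rises of 2.13 (SE 0.51, limma adjusted p = 0.00282) and 1.81 (SE 0.51, limma adjusted p = 0.00752) each depended on single libraries. In iG+P cells Fzd10 had 2297 and 1241 with and 919 and 587 without Dox, 1.20 (limma adjusted p = 0.0801); against all 14 No Dox libraries it was called there (1.81, adjusted p = 6.43e-04) and not in iGPA cells (1.498 (adjusted p = 0.00273)). In iG+A cells it was 1.40 (adjusted p = 0.0653) without the second Dox and 1.64 (adjusted p = 0.0512) without the first No Dox library. The second iG+A Dox library also held more of the 8 primitive streak and nascent mesoderm markers than the first (531 and 3152, against 569 and 1236 without Dox; 0 of the 8 were called in that line by limma, and 0 had an unadjusted p under 0.05), and their part in the Fzd10 result was not tested. In iGPA cells it was 1.65 (adjusted p = 0.0547) without the first Dox and 1.42 (adjusted p = 0.0886) without the second No Dox library. Fzd3 (Entrez 14365, chromosome 14, 65819863 to 65881300, minus strand), a receptor of planar polarity and axon growth, went from 788 and 943 to 3296 and 2557 in iG+A and from 836 and 843 to 2360.0 and 2484 in iGPA cells, 1.75 (SE 0.19, limma adjusted p = 8.53e-07) and 1.53 (SE 0.19, limma adjusted p = 2.72e-06). The iGPA value lies at the threshold and was 1.49 (adjusted p = 9.64e-05) without the second Dox library. Fzd3 was also higher with Dox in iP+A cells (2179 and 1763 against 944 and 671, 1.30 (limma adjusted p = 4.79e-05)) and in iAtoh1 cells (0.75 (limma adjusted p = 0.00685)), so each of the 4 lines with Atoh1 had an adjusted p under 0.05. The sum of the 7 blood markers was lower with Dox in the same 4 lines and, to a lesser extent, in iPou4f3 (260203 and 244832 against 481793 and 371620.0) and iG+P cells (35746 and 83559 against 67326 and 136407, where the groups overlapped). With Atoh1 it stood at 19948 and 16273 against 199646 and 179931 in iAtoh1, 46728 and 55987 against 479996 and 370154 in iG+A, 13750.4 and 31440.1 against 102767 and 118912 in iP+A and 28382 and 50784 against 259522 and 432398 in iGPA cells. In these lines 4, 3, 4 and 3 of the 7 fell, against 0, 0 and 1 in iGfi1, iPou4f3 and iG+P cells, and their part in the results that follow Atoh1, Wnt10a among them, was not tested.

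Fzd8 (Entrez 14370, chromosome 18, 9212854 to 9216199, plus strand), a receptor of the anterior neural plate, rose in iP+A cells from 387 and 292 to 1207 and 988, 1.70 (SE 0.21, limma adjusted p = 1.04e-05); without the second No Dox library the value was 1.49 (adjusted p = 4.83e-04). In iGfi1 cells Fzd8 went the other way, from 344 and 261 to 140.1 and 128, −1.16 (limma adjusted p = 6.89e-04). The 8 neuronal markers (Tubb3, Dcx, Elavl3, Elavl4, Stmn2, Rbfox3, Nefl and Map2) summed to 713 and 1087 without and 24160.5 and 18055 with Dox in iP+A cells, where 8 of them rose, and their part in the Fzd8 result was not tested.

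Fzd4 and Fzd5 were called as falls in iAtoh1 cells. Fzd4 (Entrez 14366, chromosome 7, 96552876 to 96558620, plus strand), the Norrin receptor of retinal vessels, went from 576 and 914 to 232 and 259, −1.56 (SE 0.30, limma adjusted p = 0.00106), and Fzd5 (Entrez 14367, chromosome 1, 64777134 to 64784324, minus strand), a receptor of the eye field and gut, from 858 and 428 to 286 and 142, −1.58 (SE 0.36, limma adjusted p = 0.00369). Fzd4 was −1.48 (adjusted p = 0.014) without the first Dox and −1.23 (adjusted p = 0.0237) without the second No Dox library. Fzd5 was −1.08 (adjusted p = 0.078) without the second Dox and −1.08 (adjusted p = 0.0774) without the first No Dox library. In iPou4f3 cells Fzd4 was not called, at 1994 and 1694 against 919 and 976, 0.96 (limma adjusted p = 0.0767). The most abundant receptors, Fzd2 and Fzd7, were not called in any line and stayed between 2387 and 5672 and between 2165 and 5757 normalized counts in all 28 libraries. Falls of other receptors were called under some alternatives. These were Fzd9 in iAtoh1 cells with quantile normalization (−1.53, adjusted p = 0.00788) and without the first No Dox (−1.83, adjusted p = 0.0111) or the second Dox library (−1.74, adjusted p = 0.0185), and in iP+A cells without the first No Dox (−1.86, adjusted p = 0.00641) or the first Dox library (−1.57, adjusted p = 0.0371). Fzd5 was called in iG+A cells with quantile normalization (−1.60, adjusted p = 0.00138) and without the second No Dox library (−1.53, adjusted p = 0.0128), and Fzd1 in iGfi1 cells without the second Dox library (−1.59, adjusted p = 2.65e-04). Fzd1 was lower in iGfi1 (−1.38 (limma adjusted p = 1.39e-04)) and iG+P cells (−1.17 (limma adjusted p = 2.66e-04)) under the fold required, and Fzd6 ranged from −1.003 in iGfi1 to 0.76 in iGPA cells without a call.

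**Figure D3:**
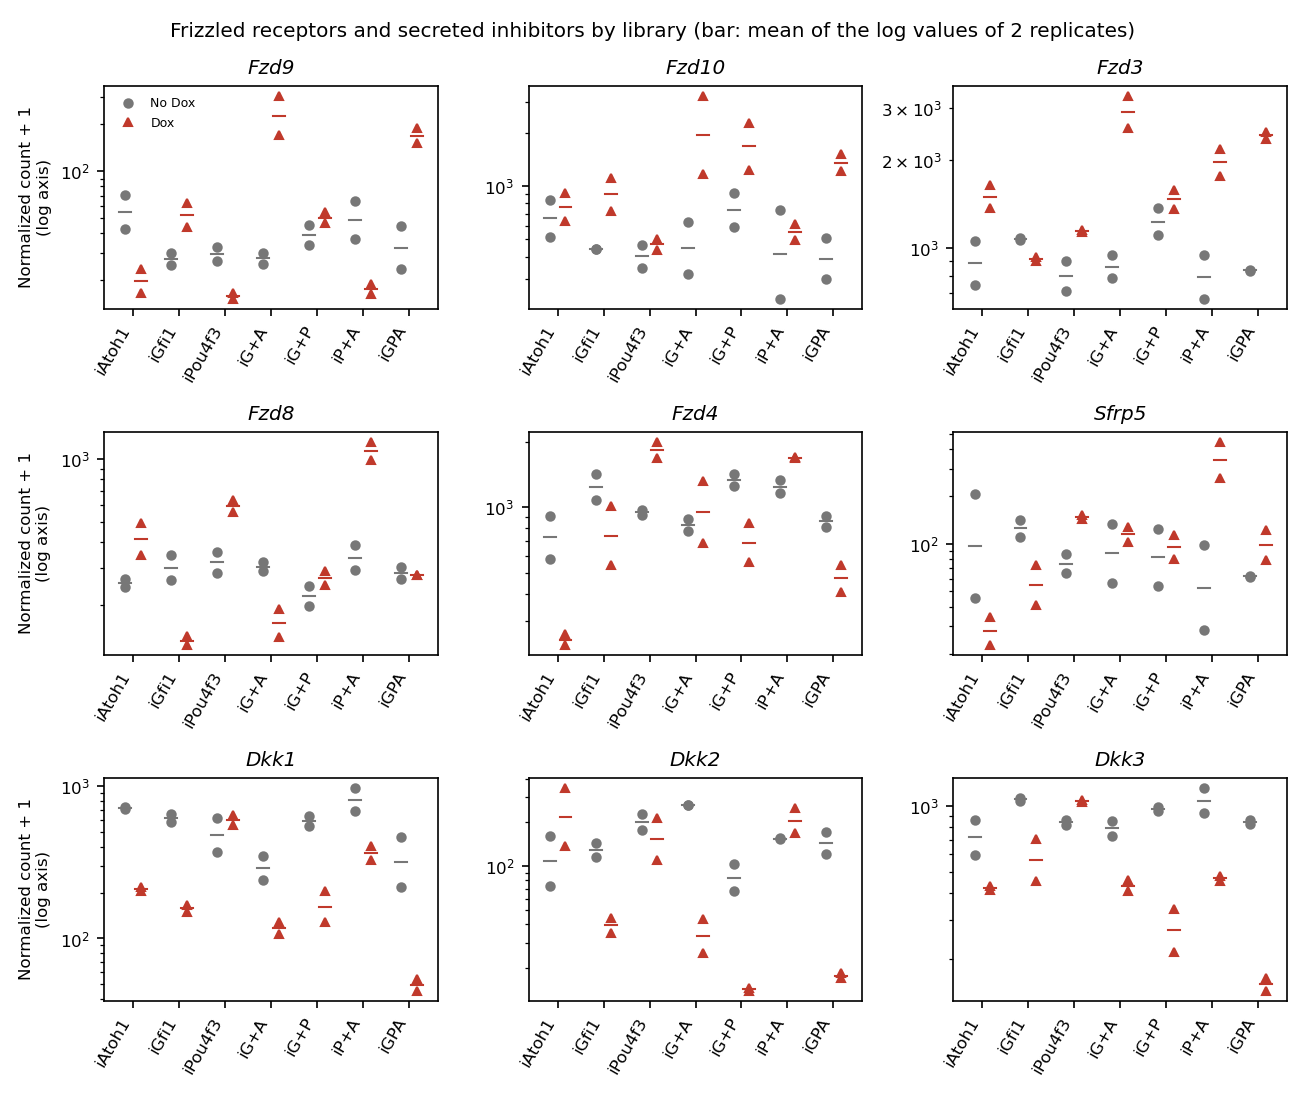
Normalized counts + 1 (log axis) of 5 Frizzled receptors and 4 secreted inhibitors in every library of the 7 lines, with grey circles for No Dox, red triangles for Dox and a bar at the mean of the log values of the 2 replicates. Fzd9 reaches 169.9 and 303 normalized counts in iG+A Dox, and Dkk2 lies at 13.01 to 43.5 in the 8 Dox libraries of the lines with Gfi1.

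Of the 4 Dkk inhibitors, Dkk1 and Dkk2 fell in 4 lines each, Dkk3 in 2 and Dkk4 in none. Dkk2 (Entrez 56811, chromosome 3, 131748256 to 131843257, plus strand), which binds the Lrp coreceptors, had 144 and 114 normalized counts without and 43.5 and 34.0 with Dox in iGfi1, and 261 and 261 and 24.5 and 42.7 in iG+A cells. In iG+P cells it had 66.4 and 102 and 13.7 and 13.01, and in iGPA cells 121 and 172 and 17.4 and 16.2. No library with Dox reached an untreated one in these 4 lines, and the falls were −1.71 (SE 0.43, limma adjusted p = 0.00696), −2.97 (SE 0.43, limma adjusted p = 2.81e-05), −2.54 (SE 0.43, limma adjusted p = 1.54e-04) and −3.03 (SE 0.43, limma adjusted p = 1.55e-05) in that order. The iGfi1 value was −1.54 (adjusted p = 0.0596) without its first No Dox library. In the 3 lines without Gfi1 the Dox and No Dox libraries of Dkk2 overlapped in iAtoh1 and iPou4f3 cells, and the differences were 0.997 (limma adjusted p = 0.104), −0.39 (limma adjusted p = 0.700) and 0.41 (limma adjusted p = 0.531) in iAtoh1, iPou4f3 and iP+A cells. In iAtoh1 cells Dkk2 was called as a rise without the first No Dox (1.56, adjusted p = 0.0386) or the first Dox library (1.66, adjusted p = 0.0248). The lines in which Dkk2 and Wnt11 fell are the same 4, so the values given for the mesoderm markers beside Wnt11 moved with Dkk2 too, and their part in it was not tested.

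Dkk1 (Entrez 13380, chromosome 19, 30620353 to 30624155, minus strand), an inhibitor that binds Lrp6 and is needed for head formation, fell in iAtoh1, iGfi1, iG+P and iGPA cells. It had 730.4 and 709.9 normalized counts without and 205 and 216 with Dox in iAtoh1, 656 and 581 and 166 and 148 in iGfi1, 638 and 551 and 204 and 127 in iG+P, and 463 and 217 and 53.1 and 44.4 in iGPA cells. The groups were apart in each, and the falls were −1.77 (SE 0.31, limma adjusted p = 4.92e-04), −1.97 (SE 0.31, limma adjusted p = 1.92e-04), −1.88 (SE 0.31, limma adjusted p = 1.16e-04) and −2.68 (SE 0.31, limma adjusted p = 1.46e-06). iG+A and iP+A cells had lower values too, at −1.30 (limma adjusted p = 0.00267) and −1.16 (limma adjusted p = 0.0102), under the fold required. Against all 14 No Dox libraries Dkk1 lost its call in iAtoh1 (−1.28 (adjusted p = 0.0108)) and was called in iG+A cells (−2.13, adjusted p = 5.24e-05), which left the 4 lines with Gfi1, and iG+A cells were also called with quantile normalization (−1.62, adjusted p = 2.52e-04) and without the first No Dox library (−1.57, adjusted p = 0.00454). By its own controls iPou4f3 was the 1 line without an adjusted p under 0.05 (0.34 (limma adjusted p = 0.626)). Dkk3 (Entrez 50781, chromosome 7, 119259533 to 119302571, minus strand), a divergent member of the family, fell in iG+P cells from 980.5 and 943 to 215 and 338, −1.83 (SE 0.21, limma adjusted p = 2.36e-06), and in iGPA cells from 827 and 857 to 143 and 164, −2.45 (SE 0.21, limma adjusted p = 3.97e-08). Over all 14 No Dox libraries Dkk3 lay between 597 and 1199. The sum of the fibroblast markers given beside Wnt5a was lower with Dox in these 2 lines and in others, and their part in the Dkk3 result was not tested. Dkk4 was low (2.16 to 16.3 in all libraries) and was not called in any line.

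The windows upstream of Dkk1 (chr19:30549497-30549746, minus strand) and Dkk2 (chr3:132085042-132085291, plus strand), both on GRCm38.p6, are shown because these inhibitors fell in 4 lines each. The capitals in Dkk1 mark CTTTGAA, 117 bases before the start, and Dkk2 holds none of the motifs.
Dkk1: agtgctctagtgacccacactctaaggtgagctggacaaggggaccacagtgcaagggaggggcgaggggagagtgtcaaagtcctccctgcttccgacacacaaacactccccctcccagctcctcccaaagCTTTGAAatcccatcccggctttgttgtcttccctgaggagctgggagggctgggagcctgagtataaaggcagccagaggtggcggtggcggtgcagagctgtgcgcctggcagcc
Dkk2: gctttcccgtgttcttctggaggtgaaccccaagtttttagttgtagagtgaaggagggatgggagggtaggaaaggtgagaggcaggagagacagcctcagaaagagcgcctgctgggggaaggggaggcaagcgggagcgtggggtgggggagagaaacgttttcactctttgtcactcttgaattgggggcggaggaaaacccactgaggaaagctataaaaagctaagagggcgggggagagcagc

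Of the 4 Sfrp inhibitors, which bind the ligands, Sfrp4 and Sfrp5 were called. Sfrp5 (Entrez 54612, chromosome 19, 42272461 to 42276742, minus strand), known from foregut and fat, rose in iP+A cells, from 96.8 and 27.6 to 441 and 261 normalized counts, 2.69 (SE 0.63, limma adjusted p = 0.00433), and fell in iAtoh1 cells, from 207 and 44.1 to 21.9 and 33.1, −1.79 (SE 0.63, limma adjusted p = 0.0483). The groups did not overlap in either line, but the untreated libraries were far apart in both. In iAtoh1 cells the 8 genes of pluripotent cells summed to 14563 and 8720 without and 4446 and 2738 with Dox. The 8 primitive streak and nascent mesoderm genes summed to 3099.5 and 1063 without and 1727 and 1507 with Dox. The part of these markers in the Sfrp5 and Fzd5 results in iAtoh1 cells was not tested. The rise was 2.31 (adjusted p = 0.0605) without the first Dox and 1.80 (adjusted p = 0.0916) without the second No Dox library. The fall was −0.69 (adjusted p = 0.539) without the first No Dox, −1.504 (adjusted p = 0.214) without the first Dox and −2.08 (adjusted p = 0.0877) without the second Dox library, and leaving out any of 16 libraries of other lines also moved its adjusted p to 0.0523 to 0.0579. Sfrp4 (Entrez 20379, chromosome 13, 19714973 to 19724863, plus strand), a low member, rose in iG+A cells from 6.97 and 19.1 to 61.8 and 36.7, 1.94 (SE 0.58, limma adjusted p = 0.0116), and in iGPA cells from 11.4 and 6.89 to 32.8 and 22.2, 1.504 (SE 0.58, limma adjusted p = 0.04). The iG+A call was lost without the first Dox (1.57 (adjusted p = 0.0974)) or the first No Dox library (1.28 (adjusted p = 0.157)), and the iGPA call without any of its 4 libraries (1.18 to 1.83, adjusted p 0.0527 to 0.217). Sfrp1 and Sfrp2, the abundant members, were not called. Sfrp1 was called as a fall in iAtoh1 cells without the second No Dox library (−2.07, adjusted p = 0.00569, against −1.20 (limma adjusted p = 0.0732)), in iG+A cells without the first Dox (−1.68, adjusted p = 0.0299) and in iG+P cells without the first Dox library (−1.61, adjusted p = 0.0489). Sfrp1 had an adjusted p under 0.05 in iG+A (−1.30 (limma adjusted p = 0.0324)) and iG+P cells (−1.31 (limma adjusted p = 0.0377)), and Sfrp2 in iP+A cells (−1.08 (limma adjusted p = 0.00221)).

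Lef1 (Entrez 16842, chromosome 3, 130813389 to 130927274, plus strand), the DNA-binding partner of β-catenin, rose in iG+A cells, from 619 and 966 to 1817 and 4561 normalized counts, 1.89 (SE 0.42, limma adjusted p = 0.00156). Without the second Dox library the difference was 1.23 (adjusted p = 0.0434). That library was the highest of the iG+A libraries for Lef1, Axin2, Fzd10 and the primitive streak sum given beside Fzd10, and the markers' part in these results was not tested. Axin2 (Entrez 12006, chromosome 11, 108781663 to 108812097, plus strand), a scaffold of the destruction complex that canonical signalling induces, was not called in any line. It had 1019 and 1194 without and 1725 and 3179 with Dox in iG+A cells, 1.09 (SE 0.29, limma adjusted p = 0.00641), and 1236 and 839 and 2195 and 1672 in iGPA cells, 0.91 (SE 0.29, limma adjusted p = 0.0164). In both lines the groups did not overlap and the adjusted p was under 0.05, under the fold required; without the first iG+A Dox library Axin2 was called there (1.53, adjusted p = 0.00139). In the other 5 lines the difference of Axin2 lay between −0.30 (iP+A) and 0.44 (iPou4f3).

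**Figure D4:**
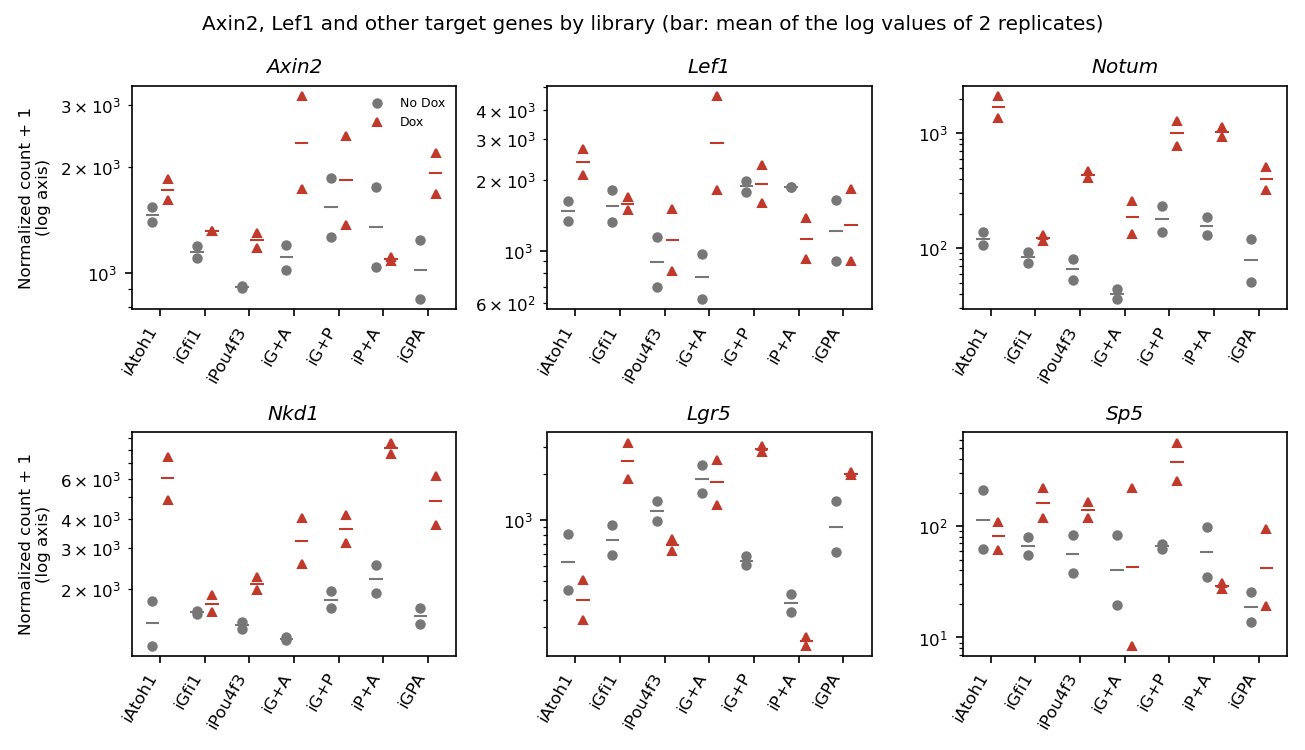
Normalized counts + 1 (log axis) of Axin2, Lef1, Notum, Nkd1, Lgr5 and Sp5 in every library of the 7 lines, with grey circles for No Dox, red triangles for Dox and a bar at the mean of the log values of the 2 replicates. Notum has a higher mean with Dox than without in every line but was not called in iGfi1 cells. The highest Axin2 library is the second of iG+A Dox at 3179 normalized counts.

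Other genes of the pathway were taken from a list of 50 components, of which 50 were tested. Of these, 4 rose and 4 fell in iG+A, 4 and 5 in iGPA, 4 and 3 in iG+P, 4 and 2 in iP+A, 2 and 2 in iAtoh1, 1 and 1 in iGfi1, and 1 and 0 in iPou4f3 cells. These shares (2% to 18%) stand beside 2.08% to 14% of all genes. Notum, an enzyme that removes the lipid of Wnt ligands and a feedback target, rose in 6 of 7 lines: it had 136 and 107 normalized counts without and 1351 and 2102 with Dox in iAtoh1, and 129 and 186 and 924 and 1143 in iP+A cells. Against all 14 No Dox libraries the iG+A call of Notum was lost, at 1.00 (adjusted p = 0.0989). The rises ran from 2.22 (limma adjusted p = 3.02e-04) in iG+A to 3.80 (limma adjusted p = 3.41e-06) in iAtoh1 cells, and iGfi1 cells had 0.56 (limma adjusted p = 0.331). Nkd1, a feedback inhibitor that binds Dishevelled, rose in iAtoh1 (2.09 (limma adjusted p = 1.62e-05)), iP+A (1.89 (limma adjusted p = 2.79e-05)) and iGPA cells (1.66 (limma adjusted p = 4.17e-05)), and in iG+A cells stood at 1.41 (limma adjusted p = 2.98e-04). Without the first iGPA Dox library the iGPA value of Nkd1 was 1.31 (adjusted p = 0.00193), under the fold required.

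Lgr6, a receptor for R-spondins, rose in iG+A and iGPA cells, from 15.1 and 16.8 to 195 and 214 and from 15.7 and 3.93 to 125 and 145 normalized counts, 3.60 (limma adjusted p = 2.26e-05) and 3.90 (limma adjusted p = 6.27e-06). Celsr1, a cadherin of planar polarity, rose in the same lines (2.37 (limma adjusted p = 9.45e-05) and 2.80 (limma adjusted p = 1.10e-05)). Lgr5, a relative of Lgr6, rose in iGfi1 (1.70 (limma adjusted p = 0.00606)) and iG+P cells (2.40 (limma adjusted p = 2.07e-04)), and the iGfi1 value was 1.39 (adjusted p = 0.0815) without the second No Dox and 1.31 (adjusted p = 0.103) without the first Dox library. The secreted inhibitor Wif1 rose in iG+A cells (2.65 (limma adjusted p = 8.43e-04)), while Frzb, a relative of the Sfrp genes, fell in iAtoh1 (−1.64 (limma adjusted p = 0.00203)), iGfi1 (−2.10 (limma adjusted p = 2.41e-04)), iG+P (−2.65 (limma adjusted p = 8.06e-06)) and iP+A cells (−2.00 (limma adjusted p = 2.85e-04)) and had 0.20 and 0.45 in iG+A and iGPA cells. Rnf43, a ligase that removes Frizzled receptors from the surface, fell in iG+A (−1.98 (limma adjusted p = 7.49e-04)), iP+A (−1.63 (limma adjusted p = 0.00601)) and iGPA cells (−1.72 (limma adjusted p = 0.0019)). The iP+A value was −1.25 (adjusted p = 0.0858) without the second No Dox and −1.46 (adjusted p = 0.0649) without the first Dox library, and the iGPA value −1.38 and −1.39 without the second No Dox or the first Dox library. Frzb in iAtoh1 cells was −1.08 (adjusted p = 0.0519) without the first No Dox and −1.41 (adjusted p = 0.0319) without the second Dox library. Tcf7l1, a repressing partner of β-catenin, fell in iG+A (−1.67 (limma adjusted p = 4.02e-09)) and iGPA cells (−1.65 (limma adjusted p = 2.64e-09)). Against all 14 No Dox libraries Tcf7l1 was −1.43 (adjusted p = 5.50e-04) in iGPA and Frzb −1.10 (adjusted p = 0.00797) in iAtoh1 cells, both under the fold required.

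Of a list of 17 known Wnt target genes, which shares 6 genes with the pathway list, 16 were tested. In iG+P cells 4 rose and 2 fell, in iGPA cells 3 and 2, in iP+A cells 2 and 1, in iG+A cells 1 and 1, in iAtoh1 and iGfi1 cells 2 and 0 each, and in iPou4f3 cells 1 and 0. The shares of the 16 called ran from 6.25% in iPou4f3 to 37.5% in iG+P cells, beside 2.08% and 10.5% of all genes, and iGPA had 31.2% beside 14%. In iG+A cells the share was close to the 12.3% of all genes. The counts in iP+A, iAtoh1 and iGfi1 cells stand beside 7.29%, 5.4% and 4.82% of all genes. Besides Notum, Nkd1 and Lgr5, the rises were of Cdx1, a homeobox gene of the posterior body, in iGfi1 (1.93 (limma adjusted p = 0.0248)) and iG+P cells (2.64 (limma adjusted p = 0.00226)), and of Msgn1, a gene of the presomitic mesoderm, in iG+P (4.43 (limma adjusted p = 0.00462)) and iGPA cells (limma adjusted p = 0.0249). The Cdx1 call in iGfi1 cells was lost without the first No Dox (1.22, adjusted p = 0.253) or the first Dox library (1.33, adjusted p = 0.250). The Cdx1 difference in iGfi1 cells was 1.42 (adjusted p = 0.0225) against all 14 No Dox libraries and 1.32 (adjusted p = 0.0384) with a pseudocount of 5. Msgn1 was low, at 76.6 and 29.9 with and 4.19 and 0 without Dox in iG+P cells. In iGPA cells both untreated libraries were at 0 and the Dox libraries at 16.2 and 4.01, so no fold is given there. The Msgn1 calls were lost without the second iG+P No Dox (3.24, adjusted p = 0.0801) or first iG+P Dox library (3.76, adjusted p = 0.0539), and without either iGPA No Dox or the first iGPA Dox library (adjusted p 0.0823, 0.0868 and 0.201). Cdx2, a relative of Cdx1, fell in iG+P (−3.76 (limma adjusted p = 2.07e-06)) and iGPA cells (−2.20 (limma adjusted p = 3.78e-04)). T, a gene of the primitive streak, was not called in any line (−2.76 to 1.88).

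The lines form matched pairs that differ by 1 factor, so the effect of adding a factor was tested as the mean difference of the Dox effects over 3 pairs. The 3 tests share lines and are not independent of each other. For Gfi1 the pairs were iG+A and iAtoh1, iG+P and iPou4f3, and iGPA and iP+A. With Gfi1, 5 members were higher and 2 lower, beside 4.84% and 3.07% of all genes (7.91% in either direction). Wnt10a differed by 4.09 (95% interval 2.86 to 5.32, limma adjusted p = 2.82e-05), Fzd9 by 3.20 (95% interval 2.55 to 3.85, limma adjusted p = 3.68e-07), Wnt6 by 1.80 (limma adjusted p = 0.00328), Wnt4 by 1.78 (limma adjusted p = 2.44e-05) and Wnt7b by 1.60 (limma adjusted p = 0.00984). Wnt11 and Dkk2 were lower, by −3.21 (95% interval −3.90 to −2.51, limma adjusted p = 7.81e-07) and −3.19 (95% interval −3.93 to −2.45, limma adjusted p = 1.70e-06). Wnt11, Dkk2, Fzd9, Wnt4 and Wnt10a kept these calls without any single library. Wnt6 was 1.43 (adjusted p = 0.00286) without the first iG+P Dox library, and Wnt7b lost its call without any of 5 libraries (1.22 to 1.49), namely the second iG+A Dox, the first iG+P Dox, the second iGPA No Dox, the first iP+A Dox and the second iP+A No Dox library.

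Within the pairs, the difference of Wnt11 was −2.96 for iG+A against iAtoh1, −3.50 for iG+P against iPou4f3 and −3.15 for iGPA against iP+A, so all 3 lay close together. Dkk2 had −3.97, −2.15 and −3.44 in the same order. For Wnt10a the 3 values were 3.48, 0.09 and 8.70, and the second was not called (0.09 (limma adjusted p = 0.967)). Its mean is therefore carried by the pairs that hold Atoh1. Fzd9 had 4.52, 1.26 and 3.84, again with the second not called (1.26 (limma adjusted p = 0.118)). Wnt6 had 2.28 in iG+A against iAtoh1 and 4.02 in iGPA against iP+A, and Wnt4 had 2.85 and 2.86. In iG+P against iPou4f3 both values were negative and not called, so these means too rest on the pairs that hold Atoh1. In iGPA against iP+A, the Wnt4 value came mostly from its fall in iP+A cells. That fall lost its call against the untreated libraries of all lines, and iGPA cells had no Wnt4 call. Wnt7b was called in iGPA against iP+A only (3.24).

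With Pou4f3 added (iP+A and iAtoh1, iG+P and iGfi1, iGPA and iG+A), 1 member was higher and 2 were lower, beside 2.25% and 0.469% of all genes (2.72%). Sfrp5 was higher by 2.05 (95% interval 0.96 to 3.13, limma adjusted p = 0.014), Wnt6 was lower by −1.99 (95% interval −2.90 to −1.09, limma adjusted p = 0.00504) and Wnt10a by −1.88 (95% interval −3.11 to −0.66, limma adjusted p = 0.0446). The Wnt10a call was lost without any of 22 libraries (−1.97 to −1.45, adjusted p 0.0518 to 0.0976). It came from 1 pair: iP+A had −5.46 against iAtoh1, while iGPA had −0.24 against iG+A and iG+P 0.05 against iGfi1. Sfrp5 (4.48) and Wnt6 (−3.70) were also called in iP+A against iAtoh1 only. In those lines Sfrp5 rose in iP+A and fell in iAtoh1 cells. With Atoh1 added (iG+A and iGfi1, iP+A and iPou4f3, iGPA and iG+P), Wnt10a and Wnt6 were higher, by 4.45 (95% interval 3.22 to 5.68, limma adjusted p = 1.81e-05) and 1.88 (95% interval 0.97 to 2.78, limma adjusted p = 0.00295), and no member was called lower, beside 3.64% of all genes higher (5.13% in either direction). Wnt10a had 7.51 in iG+A against iGfi1 and 7.22 in iGPA against iG+P. Wnt6 had 4.61 and 2.96 in the same order. In iP+A against iPou4f3 the values of both genes were negative and not called. Their means are therefore carried by the pairs that hold Gfi1. Of the receptors Fzd3 had 1.35 (95% interval 1.03 to 1.67, limma adjusted p = 3.67e-06) with Atoh1 added, under the fold required.

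Each of the 9 pairs was also tested by itself. In iG+A against iAtoh1 6 members were higher and 3 lower (all genes 4.44% higher and 2.44% lower, 6.87% in either direction). In iG+P against iPou4f3 0 members were higher and 7 lower (all genes 4.19% lower, 7.63% in either direction). In iGPA against iP+A 6 members were higher and 5 lower (all genes 4.76% higher and 2.84% lower, 7.6% in either direction). In iP+A against iAtoh1 2 members were higher and 2 lower (all genes 2.09% higher and 0.689% lower, 2.78% in either direction). In iG+P against iGfi1 limma called 0 members, with 5 at an unadjusted p under 0.05 (all genes 1.85% and 16.6%). In iGPA against iG+A 0 members were higher and 1 lower (all genes 0.6% lower, 2.2% in either direction). In iG+A against iGfi1 6 members were higher and 2 lower (all genes 5.17% higher and 3.37% lower, 8.54% in either direction). In iP+A against iPou4f3 limma called 0 members, with 10 at an unadjusted p under 0.05 (all genes 1.61% and 14.7%). In iGPA against iG+P 5 members were higher and 0 lower (all genes 4.24% higher, 5.9% in either direction). So the pairs that differ by Gfi1 had 9, 7 and 11 calls, those that differ by Pou4f3 4, 0 and 1, and those that differ by Atoh1 8, 0 and 5.

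**Figure D5:**
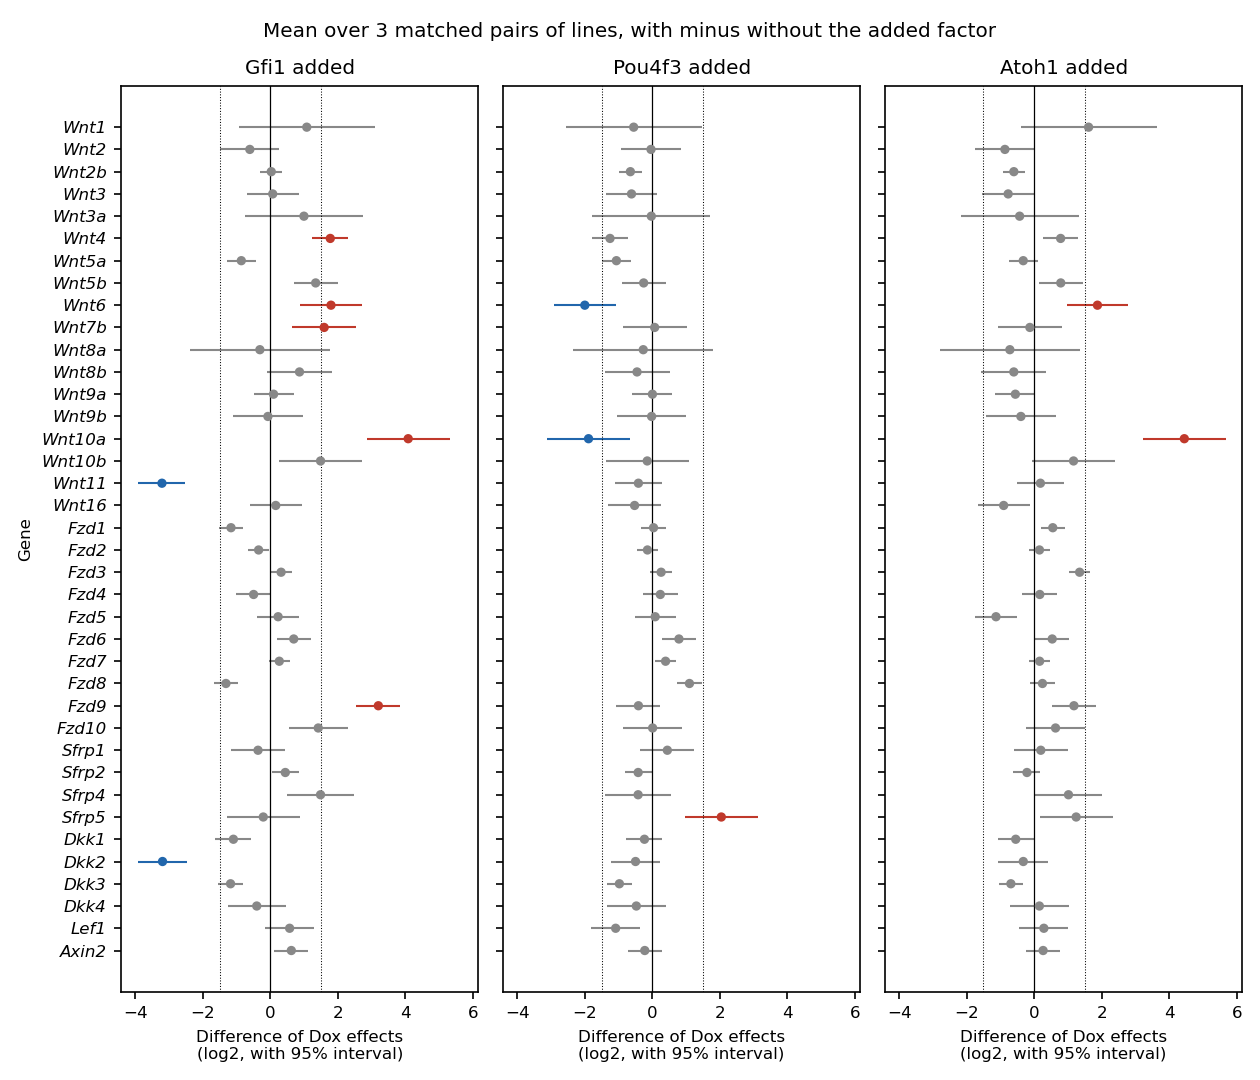
Mean difference of the Dox effects (log2) over 3 matched pairs of lines with minus without Gfi1, Pou4f3 or Atoh1, for the 38 tested members (rows), with 95% intervals, red and blue for calls upward and downward, and dotted lines at ±1.5. Wnt10a lies at 4.09 for Gfi1 and 4.45 for Atoh1, and Wnt11 and Dkk2 lie at −3.21 and −3.19 for Gfi1.

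Over the mean of the 7 lines, 1 member rose and 2 fell, beside 3.33% and 2.05% of all genes (5.39%). These were Wnt10a (3.76 (SE 0.27, limma adjusted p = 1.19e-09)), Wnt11 (−1.69 (SE 0.15, limma adjusted p = 2.66e-08)) and Wnt9b, described above. Dkk1 stood just under the fold required (−1.49 (SE 0.12, limma adjusted p = 3.94e-09)), as did Dkk2 (−1.32 (SE 0.16, limma adjusted p = 1.43e-06)) and Dkk3 (−1.10 (SE 0.08, limma adjusted p = 1.30e-09)). Of the 8 inhibitors, 2 had a positive mean effect (Sfrp4 at 0.33 and Sfrp5 at 0.28), and the median of the 8 was −0.59 against −0.0036 for all genes. The medians of the 18 ligands and the 10 receptors were −0.05 and −0.06.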

How the data were processed

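RNA-seq was done on 28 libraries, 2 for each of 14 groups (7 lines, Dox and No Dox). Per the submitters' notes and the study's methods, cutadapt trimmed the reads, kallisto assigned them to the mm9 knownGene transcripts of UCSC, and DESeq2 normalized the sums per gene; versions are not given in the sources used here. The deposited values, as the authors made them, are log2(normalized count + 1), with 18.52 the highest, and 19421 Entrez genes are listed. RefSeq named 19314 of them and left 107 unnamed. Dividing normalized counts up to 20 by the value of 1 read (0.816 to 1.22) gave a whole number, within 0.05, for only 70.6% to 79.5% of values per library, so whole reads were not recovered and no count test was run. Intervals therefore rest on the spread between libraries.

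The 16837 genes that reached 10 normalized counts in 2 or more libraries were fitted with limma 3.58.1 in R 4.3.3 (group means, variance trend, 14 residual degrees of freedom, Benjamini-Hochberg adjustment per contrast; median standard error of a Dox effect 0.184). No block was used. The deviations of same-numbered Dox and No Dox libraries correlated in every line (0.10 to 0.25), although no source states that equal numbers mark the same clone, so a replicate block within lines was an alternative, printed where it changes a call. The others were pseudocounts of 0.5 and 5, no filter or a minimum of 50, quantile normalization, rescaling by the 75th percentile, only the groups compared, all 14 No Dox libraries as 1 control, no trend, a fold threshold of 1, and leaving out each library.

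Members called in at least 1 line are described with every library of the groups concerned, neighbours and families together; other members are given by ranges. The members and the lists of pathway, target and marker genes were chosen with earlier results of these data known. Levels per kilobase use the union of exons in GENCODE M1 (NCBIM37), the build of the files. Promoter windows are RefSeq's on GRCm38.p6.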

Additional observations from a re-analysis of the deposited data

Results flagged for a closer look

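These are the differences between the Dox effects of 2 lines that passed an adjusted p under 0.05 and 1.5 on the log2 scale, in a test of the difference itself (limma contrasts, adjusted over all genes). There were 45 over the 9 pairs of lines that differ by 1 factor. The pairs share lines and are not independent of each other, and no explanation was tested.

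For pairs that differ by Gfi1, these were as follows. In iG+A against iAtoh1, the Dox effect was higher for Wnt4 by 2.85, Wnt5b by 2.23, Wnt6 by 2.28, Wnt10a by 3.48, Fzd4 by 1.75 and Fzd9 by 4.52 and lower for Wnt11 (−2.96), Fzd8 (−1.60) and Dkk2 (−3.97). In iG+P against iPou4f3, the Dox effect was lower for Wnt5a (−1.64), Wnt11 (−3.50), Fzd1 (−1.54), Fzd4 (−1.91), Dkk1 (−2.22), Dkk2 (−2.15) and Dkk3 (−2.15). In iGPA against iP+A, the Dox effect was higher for Wnt4 by 2.86, Wnt5b by 2.16, Wnt6 by 4.02, Wnt7b by 3.24, Wnt10a by 8.70 and Fzd9 by 3.84 and lower for Wnt11 (−3.15), Fzd1 (−1.51), Fzd8 (−1.72), Dkk1 (−1.52) and Dkk2 (−3.44).

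For pairs that differ by Pou4f3, these were as follows. In iP+A against iAtoh1, the Dox effect was higher for Fzd4 by 2.00 and Sfrp5 by 4.48 and lower for Wnt6 (−3.70) and Wnt10a (−5.46). In iGPA against iG+A, the Dox effect was lower for Dkk3 (−1.59). In iG+P against iGfi1, limma called 0 members (5 at an unadjusted p under 0.05).

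For pairs that differ by Atoh1, these were as follows. In iG+A against iGfi1, the Dox effect was higher for Wnt4 by 2.33, Wnt6 by 4.61, Wnt10a by 7.51, Fzd3 by 1.97, Fzd9 by 2.10 and Lef1 by 1.86 and lower for Wnt16 (−1.84) and Fzd5 (−1.78). In iGPA against iG+P, the Dox effect was higher for Wnt4 by 1.63, Wnt5b by 1.82, Wnt6 by 2.96, Wnt10a by 7.22 and Fzd9 by 2.01. In iP+A against iPou4f3, limma called 0 members (10 at an unadjusted p under 0.05).

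Each line enters these values with its own untreated group, and 24 of the 45 held under each alternative run for them, which leaves out all 14 No Dox libraries as 1 control. Without some single library 19 lost their call, and 11 lost it under another alternative. The 21 that lost it in either way were Wnt5b, Wnt6, Wnt10a, Fzd4 and Fzd8 in iG+A against iAtoh1, Wnt5a, Fzd1 and Dkk2 in iG+P against iPou4f3, and Wnt5b, Wnt7b, Fzd1 and Dkk1 in iGPA against iP+A. The others were Sfrp5 in iP+A against iAtoh1, Dkk3 in iGPA against iG+A, Wnt16, Fzd5 and Lef1 in iG+A against iGfi1, and Wnt4, Wnt5b, Wnt6 and Fzd9 in iGPA against iG+P. Wnt6 in iG+A against iAtoh1 (limma adjusted p = 0.0468) had the least margin: its call was lost without any of 22 libraries and under 4 other alternatives (over all alternatives 1.98 to 2.57, adjusted p up to 0.147). Wnt10a in the same pair was lost without any of 4 libraries and under 2 other alternatives (over all alternatives 2.63 to 4.32, adjusted p up to 0.132).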

How the results depend on the processing

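Of the 66 calls of members in a Dox effect, the mean or an added factor, none changed direction, 33 passed in every alternative run for them, 28 were lost without some single library and 25 under another alternative. All 14 No Dox libraries as 1 control (not applied to added factors or pairs of lines) lost 15 calls, only the groups compared 9, a pseudocount of 5 and quantile normalization 7 each, a pseudocount of 0.5 lost 3, and no filter and no trend 2 each; the causes were not tested. The 15 were Wnt9b in iGfi1, iG+P and iP+A, Wnt4 in iG+A and iP+A, Wnt2 and Lef1 in iG+A, Wnt5a in iG+P, Wnt7b in iP+A, Dkk1 and Fzd5 in iAtoh1, and Fzd3, Fzd10, Wnt5b and Sfrp4 in iGPA. Rescaling by the 75th percentile and a minimum of 50 normalized counts lost none, and no scaling moved the median of all genes by 0.1. With a fold threshold of 1, the counts of members called were 7 in iGfi1, 14 in iP+A, 8 for the mean, 14 with Gfi1 added, 6 with Pou4f3 added and 5 with Atoh1 added, as fewer genes are then refused by construction. With all untreated libraries as 1 control, iP+A had 3. The replicate block gave 1 member in iPou4f3, where the fit without it gave 0 by limma, and added Wnt8a in iAtoh1; it lost no call. Other members called only in an alternative, a fold threshold of 1 aside, were, against all 14 No Dox libraries, Wnt10b in iAtoh1 and Wnt7b in iG+A, with only the groups compared Wnt1 in iGPA, and without 1 library Wnt10a in iGfi1, Fzd3 in iP+A, Dkk1 for the mean (12 libraries) and Sfrp4, Fzd10, Wnt10b and Wnt5b with Gfi1 added and Sfrp5 with Atoh1 added. Fzd8 with Gfi1 added was called, and Dkk1 for the mean also called, with quantile normalization, and Sfrp4 with Gfi1 added also with a pseudocount of 0.5 and rescaling by the 75th percentile.

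Leaving out 1 library at a time gave 5 to 7 members in iAtoh1, 3 to 5 in iGfi1, 0 to 1 in iPou4f3, 8 to 14 in iG+A, 4 to 7 in iG+P, 4 to 7 in iP+A and 11 to 15 in iGPA. The mean had 3 to 4, Gfi1 added 6 to 11, Pou4f3 added 2 to 3 and Atoh1 added 2 to 3. The 8 in iG+A came without its second Dox library, the 11 for Gfi1 without the second iAtoh1 No Dox library, and the 1 in iPou4f3 without either iP+A No Dox library. With 2 libraries per group, genes at few counts such as Wnt1, Wnt3a and Wnt10b had standard errors of 0.72 to 1.17, so smaller differences of these genes could not be told from the spread.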

Other observations

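Several other components of the pathway moved. Pygo1, a nuclear partner of β-catenin, fell in iG+A (−1.71 (limma adjusted p = 4.74e-05); −1.47 against all 14 No Dox libraries), iG+P (−1.64 (limma adjusted p = 8.19e-05)) and iGPA cells (−1.80 (limma adjusted p = 1.92e-05)), and in iGfi1 cells, the fourth line with Gfi1, it was not called, at −1.11 (limma adjusted p = 0.00423). With Gfi1 added it was lower by −1.80 (limma adjusted p = 3.57e-06). Without the second iG+P Dox library the iG+P value was −1.37 (adjusted p = 0.00311), under the fold required. Gpc3, a glypican of the cell surface, fell in iG+P (−1.87 (limma adjusted p = 1.58e-07)) and iGPA cells (−2.03 (limma adjusted p = 2.87e-08)). Ror1, a receptor for Wnt5a, fell in iG+A cells (−2.07 (limma adjusted p = 1.21e-04)), and was −1.47 (adjusted p = 4.99e-04) against all 14 No Dox libraries. In iP+A cells 2 genes of planar polarity and neurons rose, Celsr3 (2.72 (limma adjusted p = 2.03e-06)) and Prickle2 (1.64 (limma adjusted p = 3.23e-06)). Ccnd1, a cyclin of the G1 phase, fell in iG+P cells (−2.13 (limma adjusted p = 0.00106)), and was −1.31 (adjusted p = 0.0217) against all 14 No Dox libraries. These values of Ror1 and Ccnd1, and that of Pygo1 in iG+A cells, lie under the fold required.

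4 pairs of members are neighbours with no protein-coding gene between them. Besides Wnt6 and Wnt10a, and Wnt10b and Wnt1, these are Wnt3a and Wnt9a (chromosome 11, 16175 bases apart) and Wnt9b and Wnt3 (chromosome 11, 24328 bases apart). Wnt3 had its lowest Dox effects in iP+A (−1.27) and iGPA cells (−1.01), where Wnt9b had −2.05 and −1.87. In iGfi1 cells, where Wnt9b fell by 2.01, Wnt3 had 0.16.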
